A study of Homo sapiens with 44 samples.

Results

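AGO1, AGO2, AGO3, AGO4, DICER1, DROSHA, DGCR8, XPO5, TNRC6A and TNRC6B carry out most steps by which human cells make microRNAs and silence mRNAs with them. These 10 genes were taken by name from the 58735 gene identifiers and the 27315 gene symbols of the 2 deposited expression tables. All 10 were found in both tables, and all 10 passed the filters on low values, so each was tested in every comparison.

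In the nucleus the RNase DROSHA, held by its RNA-binding partner DGCR8 in the microprocessor complex, cuts hairpin precursors out of long primary transcripts. XPO5 (exportin-5) carries the precursors to the cytoplasm, and DICER1 trims them to short duplexes. An Argonaute protein keeps one strand and pairs with mRNAs, mostly in the 3′ untranslated region (3′ UTR), through the seed bases near the 5′ end of that strand. TNRC6 proteins bind Argonaute and recruit the enzymes that shorten and decap the mRNA, and AGO2 can also slice a fully paired target. A small interfering RNA (siRNA) enters the same route at the Argonaute step, which is why these genes bear on any siRNA experiment.

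RNA sequencing was done on 14 libraries from 2 human triple-negative breast cancer lines, MDA-MB-231 and SUM149, as 7 groups of 2 biological replicates. All cells had been transfected with 20 nM siRNA and were collected after 48 h, so the control cells carried a control siRNA too. In the first experiment MDA-MB-231 cells received siRelA, siRelB or the control siRNA. The second gave siEZH2 or a control siRNA to MDA-MB-231 cells and to SUM149 cells. RELA and RELB are NF-kB subunits, and EZH2 is the Polycomb enzyme that methylates histone H3. No siRNA sequence is given in the sources used here. Each line is 1 cell line, and with 2 libraries per group the p-values measure only the spread between those libraries.

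The first experiment was deposited as raw read counts, with 18.6 to 24.4 M counts per library, and is given below as counts and as CPM (counts scaled to library size, with TMM factors). Its tests used edgeR's quasi-likelihood method. The second was deposited on a variance-stabilised, log2-like scale whose lowest value is 7.12, and was tested with limma. Its read depth is unknown. For genes with few reads a difference on that scale is smaller than the log2 fold change, so normalised counts recovered from it are given as well. A gene was called higher or lower at a Benjamini-Hochberg adjusted p under 0.05 over all genes tested. RELA had 265 and 275 counts in the siRelA libraries, against 3562 and 3391 in the controls. RELB had 90 and 107 counts in the siRelB libraries and 377 and 295 in the siRelA libraries, against 923 and 916 in the controls. EZH2 stood at 368 and 298 recovered counts under siEZH2 in MDA-MB-231, against 3022 and 3020 in its controls. In SUM149 it stood at 442 and 517, against 2563 and 2746. RELB was lower under siEZH2 too, at 184 and 206 recovered counts in MDA-MB-231, against 632 and 589 in its controls. In SUM149 RELB stood at 281 and 293, against 553 and 440. The part of RELB in the siEZH2 results was not tested. In MDA-MB-231 the mesenchymal markers VIM and FN1 were at 970 to 1158 and 183 to 280 CPM. ZEB1 was at 55.8 to 91.2 CPM, while SPARC, also a mesenchymal marker, was low at 0.930 to 1.94 CPM. Of the epithelial markers in MDA-MB-231 KRT8 was at 831 to 1014, KRT18 at 401 to 486 and EPCAM at 12.6 to 21.9 CPM. CDH1 was at or under 0.364 CPM and KRT5 at 0. On the variance-stabilised scale SUM149 showed VIM at 15.9 to 16.4, FN1 at 17.6 to 18.6, KRT8 at 12.05 to 12.88, KRT18 at 12.6 to 13.0, KRT5 at 10.3 to 11.1, EPCAM at 8.63 to 10.9 and CDH1 at 8.32 to 8.61. ZEB1 read 10.5 to 11.4 in SUM149, while SPARC was at or near the lowest value, at 7.12 to 7.51. The fibroblast marker DCN read 11.2 to 12.3 in SUM149, while COL1A2 and LUM were near the lowest value. The part of these levels in the results was not tested.

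Seed pairing in general uses short words of the 3′ UTR, so such words are described here, and whether any of them bears on a change was not tested. All 7-letter words found in the 3′ UTRs of at least 100 tested genes were ranked, 15919 words in the first experiment, by how far the genes that hold a word changed relative to the genes that do not. The 10 genes themselves were left out of the ranking, which describes these libraries and carries no test. Under siRelA the word ranked first for falls was GCCTAGT. It stands in the 3′ UTRs of 729 of 12819 genes (5.69%), whose median log2 change was -0.20, against 0.02 in the genes without it. Of these 729 genes 33.9% were called lower, against 10.8% of the rest. The word ranked first for rises was TGACTAA, in 1231 genes with a median log2 change of 0.09, against 0.00 in the genes without it. Of them 19.0% were called higher, against 9.63% of the rest. Here and below, a word ranked first was picked by the same changes. The gap in called shares therefore follows in part from that choice. No mature human miRNA in RefSeq had a seed (bases 2 to 8) that pairs with any of the words ranked first in the 4 knockdowns. Pairing with a shorter seed, such as bases 2 to 7, was not searched.

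DROSHA, AGO1 and AGO3 hold GCCTAGT in their 3′ UTRs, and AGO2, AGO4 and TNRC6B hold TGACTAA. No other gene of the 10 holds either word. The 3′ UTRs differ widely in length, with 941 bases in DROSHA, 4288 in AGO4, 10928 in AGO1, 11891 in AGO2, 12570 in TNRC6B and 16758 in AGO3, and a long 3′ UTR holds more words of any kind. The sites are shown because they set the sequence of each gene beside its change under siRelA. They are read 5′ to 3′ on the gene's strand from GRCh38 and GENCODE v44, with the word in capitals and 10 bases on each side.
DROSHA, chr5:31401349-31401375, minus strand: ttgagacctaGCCTAGTtttcctgcag
AGO1, chr1:35926527-35926553, plus strand: gcaaggaaaaGCCTAGTtggaatttct
AGO3, chr1:36060214-36060240, plus strand: gcccaccactGCCTAGTgtttgcttgt
AGO3, chr1:36069033-36069059, plus strand: atctctgtgtGCCTAGTttccccttgt
AGO4, chr1:35857409-35857435, plus strand: tttgttcattTGACTAAtggtgtgatt
TNRC6B, chr22:40334964-40334990, plus strand: cctgtaaaaaTGACTAAtcagctgcac
The DROSHA site begins 70 bases into the 3′ UTR. The AGO1 site begins at base 6933, and those of AGO3 at bases 4482 and 13301. The AGO2 site begins at base 2109 of its 3′ UTR, the AGO4 site at base 3817 and the TNRC6B site at base 11736. A match describes the letters and shows no binding.

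The genes lie on 7 chromosomes. AGO4 (chr1:35808016-35857890), AGO1 (chr1:35869808-35930532) and AGO3 (chr1:35930718-36072500) are neighbours in this order on the plus strand, while AGO2 is on chromosome 8. DROSHA is on chromosome 5, DICER1 on chromosome 14, XPO5 on chromosome 6, TNRC6A on chromosome 16, and TNRC6B and DGCR8 on chromosome 22. All of these genes except AGO4 overlap an annotated gene on the opposite strand. Among the overlapping genes are TRMT2A at DGCR8, POLR1C at XPO5 and DICER1-AS1 at DICER1. Others are long non-coding RNA genes at AGO1, AGO3, TNRC6A and DGCR8. The strand setting of the counting is not given in the sources used here, so reads of such pairs may not be separated.

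Levels were compared between genes as CPM per kilobase of the Ensembl canonical transcript, in the first experiment only. In the control libraries XPO5 was highest at 37.1 ± 1.43, followed by DROSHA at 19.2 ± 0.262 and DICER1 at 14.5 ± 1.13 (SD, n = 2). TNRC6A, DGCR8 and AGO2 followed at 9.62 ± 0.46, 8.67 ± 0.95 and 8.57 ± 0.29, with overlapping values. AGO1 stood at 3.19 ± 0.339. AGO3, TNRC6B and AGO4 were lowest at 1.21 ± 0.0268, 1.18 ± 0.0870 and 1.01 ± 0.0807, and the values of AGO3 and TNRC6B overlapped. With the length of all exons joined in place of the canonical transcript, AGO2 ranked 3 and not 6 in the controls.

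In siRelA libraries DROSHA ranked 5 with 7.67 ± 0.335 CPM per kilobase, against rank 2 in siRelB libraries with 16.8 ± 0.268. AGO4 ranked 8 under siRelA and 7 under siRelB, against 10 in the controls. TNRC6B ranked 9 under siRelA and 10 under siRelB, against 9 in the controls.

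**Figure D1:**
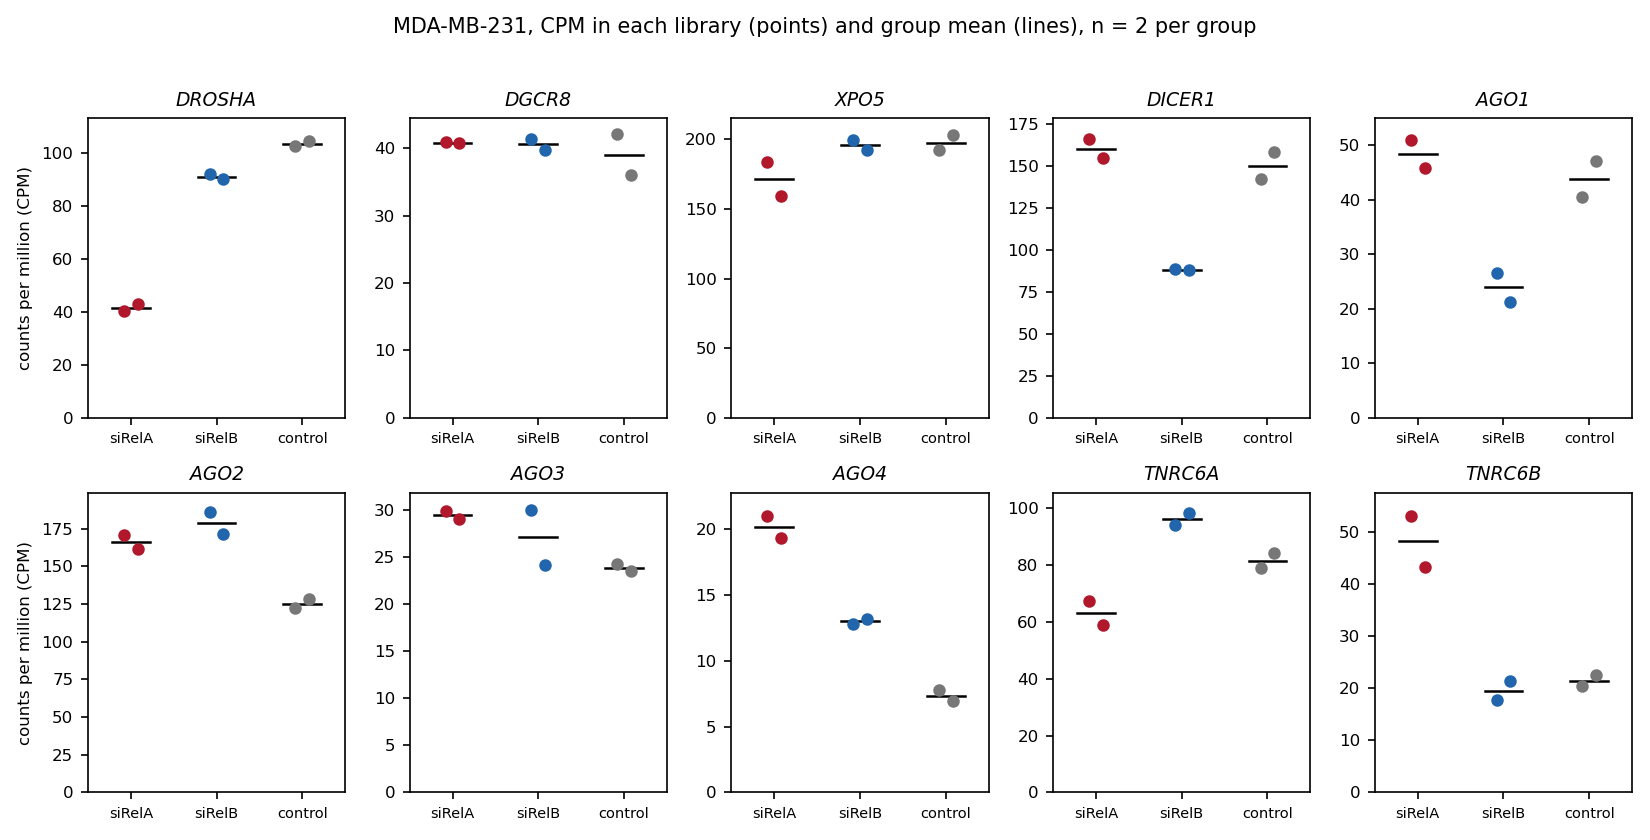
Each panel plots 1 gene in the first experiment, with CPM on a linear axis from 0, points for the 2 libraries of each group and a line for the group mean. DROSHA was at 40.3 and 42.8 CPM in siRelA libraries, against 103 and 105 CPM in the controls, while DICER1 and AGO1 were lowest in siRelB libraries.

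The comparison of siRelA with its control asked which transcripts moved when RELA was depleted. DROSHA and TNRC6A fell, and AGO4, TNRC6B and AGO2 rose. These are 5 of the 10 genes, beside 19.0% of all 15930 genes tested, and 3 rises and 2 falls beside 8.82% of all genes called higher and 10.2% called lower. The median log2 change of the 10 genes was 0.12, against 0.02 over all genes tested. In bulk RNA, fewer cells of a kind and less RNA per cell cannot be told apart.

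DROSHA, the nuclear RNase, had 996 and 943 counts in siRelA libraries, against 2385 and 2375 in the controls. Both siRelA libraries lay far below both controls. Its CPM under siRelA was 0.401 of the control mean, a log2 change of -1.32 ± 0.09 (SE; edgeR adjusted p = 4.77e-08). DGCR8, which holds the precursor for DROSHA, had 1011 and 898 counts under siRelA, against 977 and 817 in the controls, and its groups overlapped. Its change of 0.06 ± 0.11 did not pass (edgeR adjusted p = 0.759). Per kilobase, DROSHA made up 45.8 ± 1.12% of the summed DROSHA and DGCR8 level under siRelA, against 68.9 ± 2.64% in the controls (SD, n = 2).

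XPO5, the export receptor, had 4536 and 3511 counts in siRelA libraries, against 4461 and 4601 in the controls. On the CPM scale the groups did not overlap, at 183 and 160 under siRelA against 192 and 203 in the controls, but the change of -0.20 ± 0.09 did not pass (edgeR adjusted p = 0.122). Without replicate 1 of siRelA it was called lower, at -0.33 (edgeR adjusted p = 0.0327). DICER1 had 4113 and 3407 counts under siRelA, against 3300 and 3601 in the controls, and its groups overlapped. Its change was 0.09 ± 0.09 (edgeR adjusted p = 0.524).

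AGO4, an Argonaute that does not slice targets, had 519 and 426 counts in siRelA libraries, against 180 and 157 in the controls. No siRelA library came near a control, and CPM was 2.75-fold higher, a log2 change of 1.46 ± 0.16 (edgeR adjusted p = 8.26e-06). AGO2, the slicing Argonaute, had 4218 and 3557 counts under siRelA, against 2836 and 2906 in the controls. It was 1.33-fold higher on the CPM scale, with a log2 change of 0.41 ± 0.09 (edgeR adjusted p = 0.00264), and the groups did not overlap. Without replicate 1 of the controls this call was lost, at 0.36 (edgeR adjusted p = 0.0537).

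AGO1 and AGO3 did not pass under siRelA. AGO1 had 1259 and 1009 counts, against 941 and 1068 in the controls, a change of 0.14 ± 0.13 with overlapping groups (edgeR adjusted p = 0.495). AGO3 had 739 and 638 counts, against 562 and 532 in the controls, a change of 0.30 ± 0.14 (edgeR adjusted p = 0.134), and on the CPM scale its siRelA libraries lay above the controls. Of the 3 genes that hold GCCTAGT, therefore, DROSHA fell and AGO1 and AGO3 had positive changes that did not pass. The 3 genes that hold TGACTAA were the 3 that rose, and 9.60% of the genes ranked hold this word. TNRC6A, which also fell, holds neither word. The plot of changes by word shows where the 6 genes with a word lie.

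**Figure D2:**
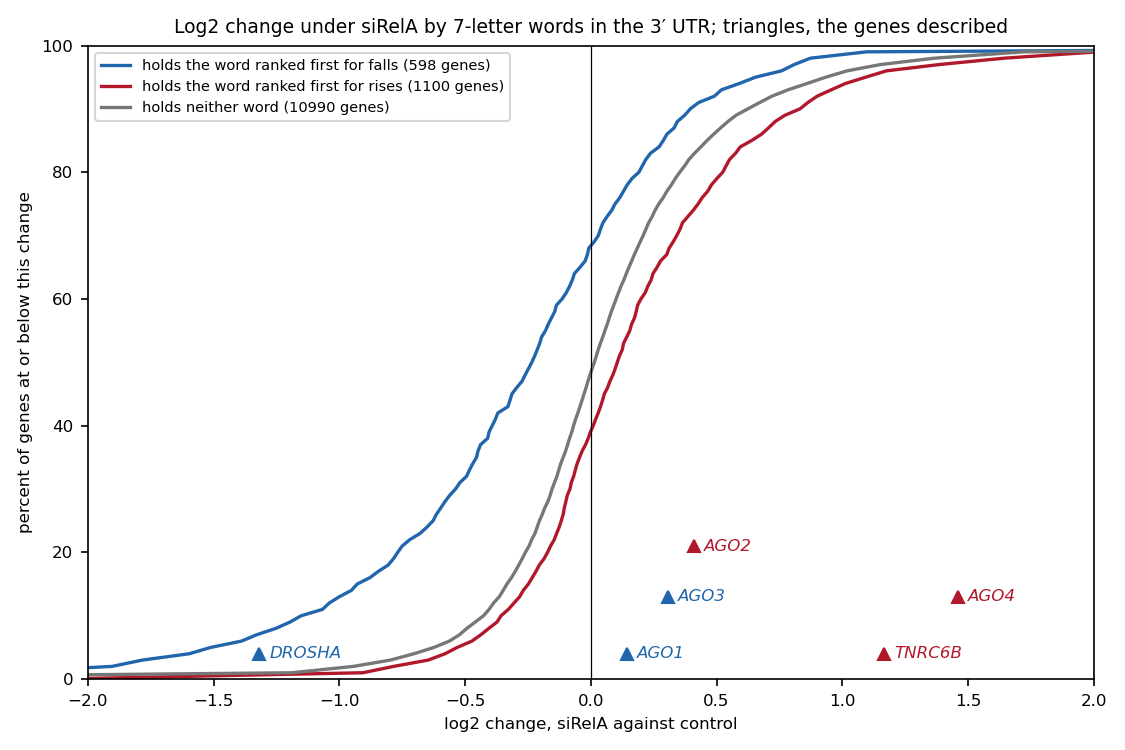
The curves give the percent of genes at or below each log2 change under siRelA against control, for 598 genes that hold only the word ranked first for falls, 1100 that hold only the word ranked first for rises and 10990 that hold neither; the genes described are not in the curves. Triangles mark the log2 change of the 6 genes with a word, in the word's colour, and their height has no meaning: DROSHA lies at -1.32 and TNRC6B, AGO4 and AGO2 at 1.17, 1.46 and 0.41, while AGO1 and AGO3 lie right of 0.

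The TNRC6 adaptors moved in opposite directions under siRelA. TNRC6B had 1313 and 955 counts in siRelA libraries, against 473 and 513 in the controls. Both siRelA libraries were above both controls, 2.24-fold in CPM, and the log2 change was 1.17 ± 0.14 (edgeR adjusted p = 1.70e-05). TNRC6A had 1667 and 1297 counts under siRelA, against 1831 and 1915 in the controls, and fell by 0.37 ± 0.10 on the log2 scale (edgeR adjusted p = 0.0135). That call was lost without replicate 2 of the controls, at -0.33 (edgeR adjusted p = 0.113), and without replicate 2 of siRelA, at -0.28 (edgeR adjusted p = 0.105). TNRC6B thus made up 26.1 ± 0.920% of the summed TNRC6A and TNRC6B level per kilobase under siRelA, against 10.9 ± 0.249% in the controls. The third adaptor, TNRC6C, did not pass (-0.02 ± 0.13, edgeR adjusted p = 0.946).

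The Argonaute mRNAs together stood at 19.8 and 18.6 CPM per kilobase in the siRelA libraries and at 18.0 and 16.4 in the siRelB libraries, against 13.6 and 14.4 in the controls. Shares below are means with SD over 2 libraries. AGO2 was the main part everywhere, with 59.3 ± 0.480% of the sum under siRelA and 71.4 ± 0.651% under siRelB, against 61.3 ± 0.208% in the controls. AGO4 made up 14.5 ± 0.159% under siRelA and 10.4 ± 0.948% under siRelB, against 7.23 ± 0.846% in the controls. AGO1 stood at 18.4 ± 0.513% under siRelA and 10.2 ± 0.920% under siRelB, against 22.8 ± 1.57% in the controls. AGO3 kept to a narrow range of 7.81 ± 0.193% under siRelA and 7.99 ± 0.678% under siRelB, against 8.67 ± 0.515% in the controls.

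**Figure D3:**
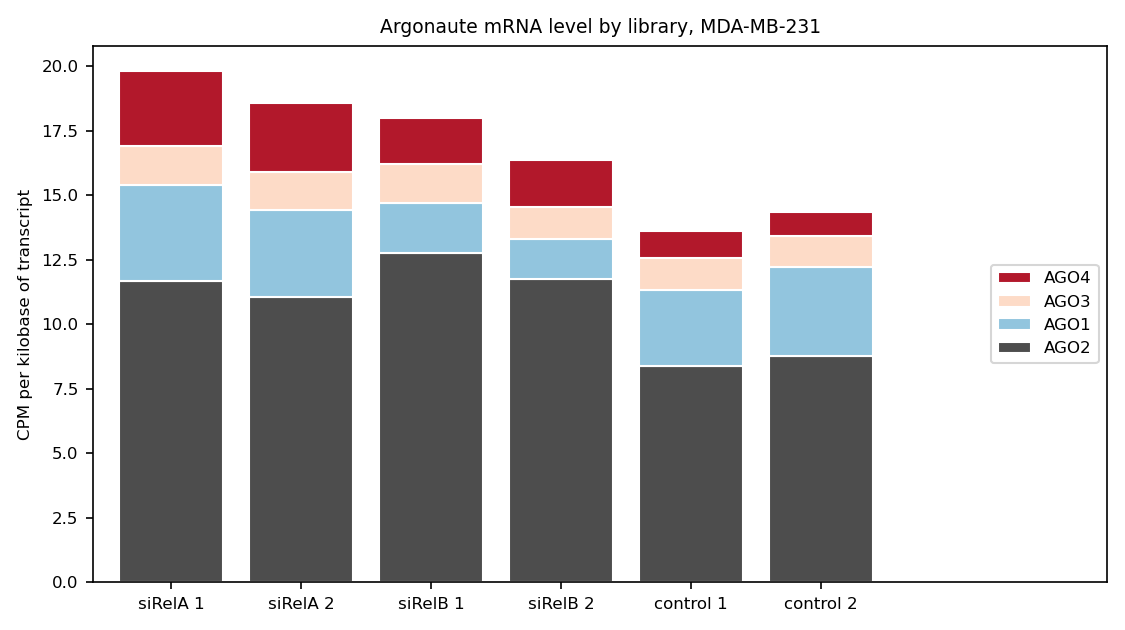
Stacked bars give the level of the 4 Argonaute mRNAs in CPM per kilobase of canonical transcript in each library of the first experiment, on a linear axis from 0. Every siRelA and siRelB bar is taller than both control bars, the AGO4 segment is tallest under siRelA, and the AGO1 segment is shortest under siRelB.

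The wider pathway under siRelA was read from 7 lists with 95 entries. The counts below stand beside 8.82% of all genes called higher and 10.2% called lower. The proteins that work with DICER1 and load Argonaute had 7 of 12 members lower and 0 higher, with a median log2 change of -0.33, against 0.02 over all genes. Among them HSP90AB1, a chaperone of the loading step, changed by -0.78 ± 0.07 (edgeR adjusted p = 4.53e-07) and TSNAX, a subunit of the nuclease that removes the passenger strand, by -0.75 ± 0.13 (edgeR adjusted p = 0.00047). Of 13 tested Argonaute cofactors 4 fell and 0 rose (median -0.08). The strongest fall was ANKRD52 (-1.18 ± 0.09, edgeR adjusted p = 8.83e-08), a regulatory subunit of the phosphatase that resets phosphorylated AGO2.

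Downstream effectors split, with 3 of 17 higher and 4 lower (median -0.08). PAN2, the catalytic subunit of a deadenylase that TNRC6 recruits, changed by 1.03 ± 0.18 (edgeR adjusted p = 0.000529). PABPC1, the main cytoplasmic poly(A)-binding protein, changed by -0.68 ± 0.08 (edgeR adjusted p = 1.13e-05). Other microprocessor factors gave 1 of 8 higher, KHSRP at 0.26 ± 0.07 (edgeR adjusted p = 0.0200), and 1 lower, SRRT at -0.33 ± 0.08 (edgeR adjusted p = 0.00806). Of the 8 tested genes of precursor tailing and decay 0 passed in edgeR and 0 in DESeq2, and 2 had an unadjusted p under 0.05 in edgeR.

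Host transcripts of microRNAs gave 2 of 15 lower and 0 higher (median -0.24), led by MIR210HG at -2.16 ± 0.48 (edgeR adjusted p = 0.00417). Of 10 tested genes described as let-7 targets 1 rose and 3 fell (median -0.23). NRAS, a small GTPase, was lowest at -2.27 ± 0.10 (edgeR adjusted p = 9.59e-11) and CDC34, a ubiquitin-conjugating enzyme, was higher at 0.81 ± 0.10 (edgeR adjusted p = 2.29e-05). HNRNPA1, HSP90AB1, HSPA8, RAN and PABPC1 have processed pseudogenes of very similar sequence, so their counts are uncertain to that extent.

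Under siRelB, set against the same controls as siRelA, DICER1 and AGO1 fell, and AGO4 and AGO2 rose. These were 4 of 10 genes, beside 18.3% of all genes called, with 2 rises beside 7.45% of all genes and 2 falls beside 10.8%. The median log2 change of the 10 genes was 0.02, against 0.01 over all genes. These 4 calls held when each library was left out in turn.

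DICER1, which cuts precursors to duplexes, had 1677 and 1743 counts in siRelB libraries, against 3300 and 3601 in the controls. The siRelB libraries were close together and far below the controls, 1.70-fold in CPM. The log2 change was -0.77 ± 0.09 (edgeR adjusted p = 1.58e-05). AGO1 had 503 and 423 counts under siRelB, against 941 and 1068 in the controls. Its groups did not overlap, CPM was 1.83-fold lower, and the log2 change was -0.87 ± 0.13 (edgeR adjusted p = 0.000216).

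AGO4 had 241 and 262 counts in siRelB libraries, against 180 and 157 in the controls. On the CPM scale that was 12.8 and 13.2 under siRelB, against 7.75 and 6.92, without overlap, and the log2 change was 0.82 ± 0.17 (edgeR adjusted p = 0.00236). AGO2 had 3512 and 3401 counts under siRelB, against 2836 and 2906, also without overlap, a change of 0.51 ± 0.09 (edgeR adjusted p = 0.000438). AGO3, at 565 and 479 counts under siRelB against 562 and 532, did not pass (0.18 ± 0.14, edgeR adjusted p = 0.400).

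The other 5 genes did not pass under siRelB. DROSHA had 1740 and 1788 counts, against 2385 and 2375 in the controls, and its CPM values of 92.2 and 90.2 lay under the control values of 103 and 105, but the change of -0.19 ± 0.09 did not pass (edgeR adjusted p = 0.172). TNRC6A had 1776 and 1953 counts under siRelB, against 1831 and 1915, a change of 0.24 ± 0.10 (edgeR adjusted p = 0.101). On the CPM scale its siRelB libraries, at 94.1 and 98.5, lay above the controls, at 78.9 and 84.4. TNRC6B had 336 and 423 counts, against 473 and 513, a change of -0.13 ± 0.14 with overlapping CPM values (edgeR adjusted p = 0.581). DGCR8 and XPO5 lay at 0.06 ± 0.11 and -0.01 ± 0.09, and both overlapped their controls.

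Each of the 2 genes that fell under siRelB has at least 1 promoter with the NF-kB consensus motif. Among RefSeq promoters (250 bases before to 50 after the start, GRCh38.p14, both strands searched), the only AGO1 promoter and 1 of 5 DICER1 promoters held it, and none did among those of the other 7 genes with a promoter in the table. Of all 35116 promoters 5.91% held it. That share is per promoter, and a gene with several promoters, such as DICER1, has more chances to hold a match. The matches are shown with the motif in capitals and 8 bases on each side.
AGO1, chr1:35882982-35883007, plus strand of the gene, motif on the opposite strand: gctgtggcGGGATGTCCCttcgccct
DICER1, chr14:95157509-95157534, minus strand of the gene, motif on the same strand: gagccagtGGGATTCTCCaagcggct
Counting the start as 0, the motif begins at base -219 in AGO1 and at base 3 in DICER1. AGO1 and DICER1 did not pass under siRelA, with changes of 0.14 and 0.09. The match describes letters only, and whether either site bears on the falls was not tested.

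Among the wider lists, siRelB gave 3 of 12 genes lower and 1 higher in the list of DICER1 partners and Argonaute loading. Their median was -0.11, against 0.01 over all genes, of which 7.45% were called higher and 10.8% lower. In this list RAN, the GTPase that exportin-5 needs, changed by -0.55 ± 0.08 (edgeR adjusted p = 0.000106). Of 13 Argonaute cofactors 4 fell and 1 rose (median -0.04). ANKRD52 changed by -1.20 ± 0.09 (edgeR adjusted p = 1.41e-07), TNRC6C by -0.56 ± 0.14 (edgeR adjusted p = 0.00853) and AJUBA, a LIM protein that binds Argonaute, by 0.61 ± 0.08 (edgeR adjusted p = 6.29e-05). Other microprocessor factors gave 3 of 8 higher and 0 lower (median 0.14).

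In the tailing and decay list 1 of 8 genes rose, the RNase ZC3H12A at 0.77 ± 0.19 (edgeR adjusted p = 0.0101). Of 17 downstream effectors 2 fell and 0 rose (median 0.00). They were PAN3 (-0.65 ± 0.13, edgeR adjusted p = 0.00182), the partner of PAN2, and PABPC4 (-0.44 ± 0.08, edgeR adjusted p = 0.000945). Of 15 host transcripts 3 fell and 1 rose, with MIR100HG at -1.75 ± 0.14 (edgeR adjusted p = 3.11e-07) and MIR4435-2HG at -1.45 ± 0.11 (edgeR adjusted p = 1.59e-07). Described let-7 targets had 1 of 10 higher, CDC34 at 1.30 ± 0.10 (edgeR adjusted p = 1.91e-07), and 4 lower, among them IGF2BP2 at -1.03 ± 0.10 (edgeR adjusted p = 2.95e-06).

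Set directly against each other, siRelA and siRelB libraries differed in 6 of the 10 genes, beside 29.9% of all genes. AGO1, AGO4, DICER1 and TNRC6B were higher under siRelA, and DROSHA and TNRC6A were lower. TNRC6B was at 53.1 and 43.4 CPM in siRelA libraries, against 17.8 and 21.3 in siRelB libraries, a log2 difference of 1.30 ± 0.14 (edgeR adjusted p = 3.77e-06). DROSHA was at 40.3 and 42.8 CPM, against 92.2 and 90.2, a difference of -1.13 ± 0.09 (edgeR adjusted p = 1.89e-07). These gaps were wider than the spread within either group.

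AGO1 differed by 1.01 ± 0.13 (edgeR adjusted p = 2.38e-05), DICER1 by 0.86 ± 0.09 (edgeR adjusted p = 2.37e-06) and TNRC6A by -0.61 ± 0.10 (edgeR adjusted p = 0.000188), all without overlap. AGO4 differed by 0.63 ± 0.16 (edgeR adjusted p = 0.00617). Without replicate 1 of siRelA the AGO4 call was lost, at 0.56 (edgeR adjusted p = 0.0512), and XPO5 was called lower, at -0.31 (edgeR adjusted p = 0.0309). AGO2, which rose against the controls under both siRNAs, differed between them by -0.11 ± 0.08 and did not pass (edgeR adjusted p = 0.379).

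**Figure D4:**
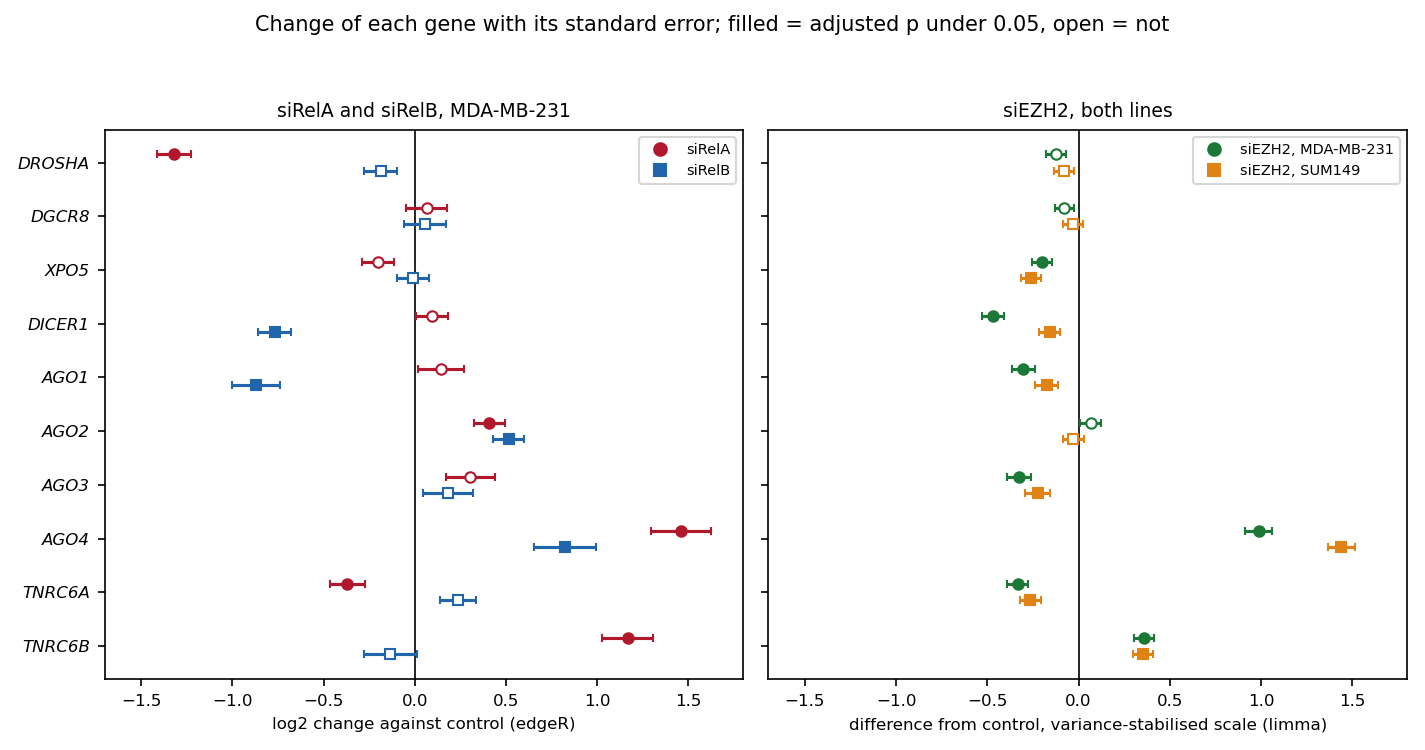
Points give each gene's change against its control with the standard error, on the log2 scale for siRelA and siRelB (left) and on the variance-stabilised scale for siEZH2 in MDA-MB-231 and SUM149 (right); filled points have an adjusted p under 0.05. AGO4 lies right of 0 with filled points in all 4 knockdowns, DROSHA has a filled point under siRelA alone, and DGCR8 has open points throughout.

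The siEZH2 comparisons asked the same of EZH2 depletion in 2 lines. In both lines AGO4 and TNRC6B rose, and AGO1, AGO3, DICER1, XPO5 and TNRC6A fell, which makes 7 of 10 genes in each line. In MDA-MB-231 56.6% of all 12356 genes tested were called, 29.4% higher and 27.1% lower. In SUM149 58.0% were called, 29.4% higher and 28.6% lower, so a count of 7 is not far above what all genes gave. The median difference of the 10 genes was -0.16 in MDA-MB-231, against 0.00 over all genes, and -0.12 in SUM149, against 0.00. AGO4 had the largest of these differences in both lines.

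AGO4 read 9.69 and 9.64 on the variance-stabilised scale under siEZH2 in MDA-MB-231, against 8.66 and 8.71 in the controls. In recovered counts that was 572 and 546, against 173 and 186, or 3.12-fold higher. The difference was 0.99 ± 0.07 (limma adjusted p = 1.35e-07). In SUM149 AGO4 read 9.56 and 9.57 under siEZH2, against 8.02 and 8.22, in recovered counts 501 and 506, against 55.7 and 85.6. That was 7.13-fold higher, a difference of 1.44 ± 0.07 (limma adjusted p = 4.97e-09). The siEZH2 libraries of the 2 lines lay within a narrow band, while the SUM149 controls lay below those of MDA-MB-231.

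TNRC6B read 10.96 and 10.96 under siEZH2 in MDA-MB-231, against 10.64 and 10.57 in the controls, a difference of 0.36 ± 0.05 (limma adjusted p = 9.32e-05). In SUM149 it read 11.20 and 11.19, against 10.80 and 10.87, a difference of 0.35 ± 0.05 (limma adjusted p = 9.81e-05). Recovered counts were 1.34-fold higher in MDA-MB-231 and 1.32-fold higher in SUM149, and neither line's groups overlapped. TNRC6A moved the other way. It read 11.24 and 11.12 in MDA-MB-231, against 11.48 and 11.54 (-0.33 ± 0.06, limma adjusted p = 0.000223), and 11.30 and 11.25 in SUM149, against 11.53 and 11.54 (-0.26 ± 0.06, limma adjusted p = 0.00129). TNRC6C rose in both lines, at 0.33 ± 0.07 in MDA-MB-231 cells (limma adjusted p = 0.00142) and 0.43 ± 0.07 in SUM149 (limma adjusted p = 0.000160).

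DICER1 read 12.62 and 12.59 under siEZH2 in MDA-MB-231, against 13.12 and 13.03 in the controls, and was 1.40-fold lower in recovered counts. Its difference was -0.47 ± 0.06 (limma adjusted p = 1.47e-05). In SUM149 DICER1 read 12.39 and 12.50, against 12.64 and 12.56, a difference of -0.16 ± 0.06 (limma adjusted p = 0.0317). The SUM149 call was lost without replicate 1 of the controls (-0.12, limma adjusted p = 0.199) and without replicate 1 of siEZH2 (-0.10, limma adjusted p = 0.234).

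AGO1 and AGO3 also fell in both lines. AGO1 read 10.94 and 10.83 under siEZH2 in MDA-MB-231, against 11.22 and 11.16 (-0.30 ± 0.06, limma adjusted p = 0.00103). In SUM149 it read 11.80 and 11.69, against 11.87 and 11.98 (-0.17 ± 0.06, limma adjusted p = 0.0290). Leaving out replicate 2 of the SUM149 controls ended that call at -0.12 (limma adjusted p = 0.198), and so did leaving out replicate 2 of siEZH2, at -0.12 (limma adjusted p = 0.218).

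AGO3 read 9.39 and 9.46 under siEZH2 in MDA-MB-231, against 9.74 and 9.76 (-0.33 ± 0.07, limma adjusted p = 0.00104). In SUM149 it read 9.96 and 9.80, against 10.10 and 10.12 (-0.22 ± 0.07, limma adjusted p = 0.0116), a call lost without replicate 2 of siEZH2, at -0.14 (limma adjusted p = 0.134). AGO4 therefore moved opposite to AGO1 and AGO3, its neighbours on chromosome 1, in both lines. AGO2 did not pass in either line, at 0.07 ± 0.06 in MDA-MB-231 cells (limma adjusted p = 0.348) and -0.03 ± 0.06 in SUM149 (limma adjusted p = 0.70), and its groups overlapped in both.

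XPO5 read 12.94 and 12.81 under siEZH2 in MDA-MB-231, against 13.09 and 13.06 (-0.20 ± 0.06, limma adjusted p = 0.00720). In SUM149 it read 12.82 in both siEZH2 libraries, against 13.05 and 13.11 (-0.26 ± 0.06, limma adjusted p = 0.00135). The MDA-MB-231 call was lost without replicate 1 of the controls (-0.19, limma adjusted p = 0.0554) and without replicate 2 of siEZH2 (-0.14, limma adjusted p = 0.0672).

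DROSHA and DGCR8 did not pass in either line. DROSHA differed from its controls by -0.12 ± 0.06 in MDA-MB-231 cells (limma adjusted p = 0.0802) and -0.08 ± 0.06 in SUM149 (limma adjusted p = 0.244). It passed in MDA-MB-231 without replicate 1 of siEZH2, at -0.19 (limma adjusted p = 0.0239), and with libraries centred on their median, at -0.16 (limma adjusted p = 0.0263). DGCR8 differed by -0.08 ± 0.05 in MDA-MB-231 cells (limma adjusted p = 0.229) and -0.03 ± 0.05 in SUM149 (limma adjusted p = 0.639).

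**Figure D5:**
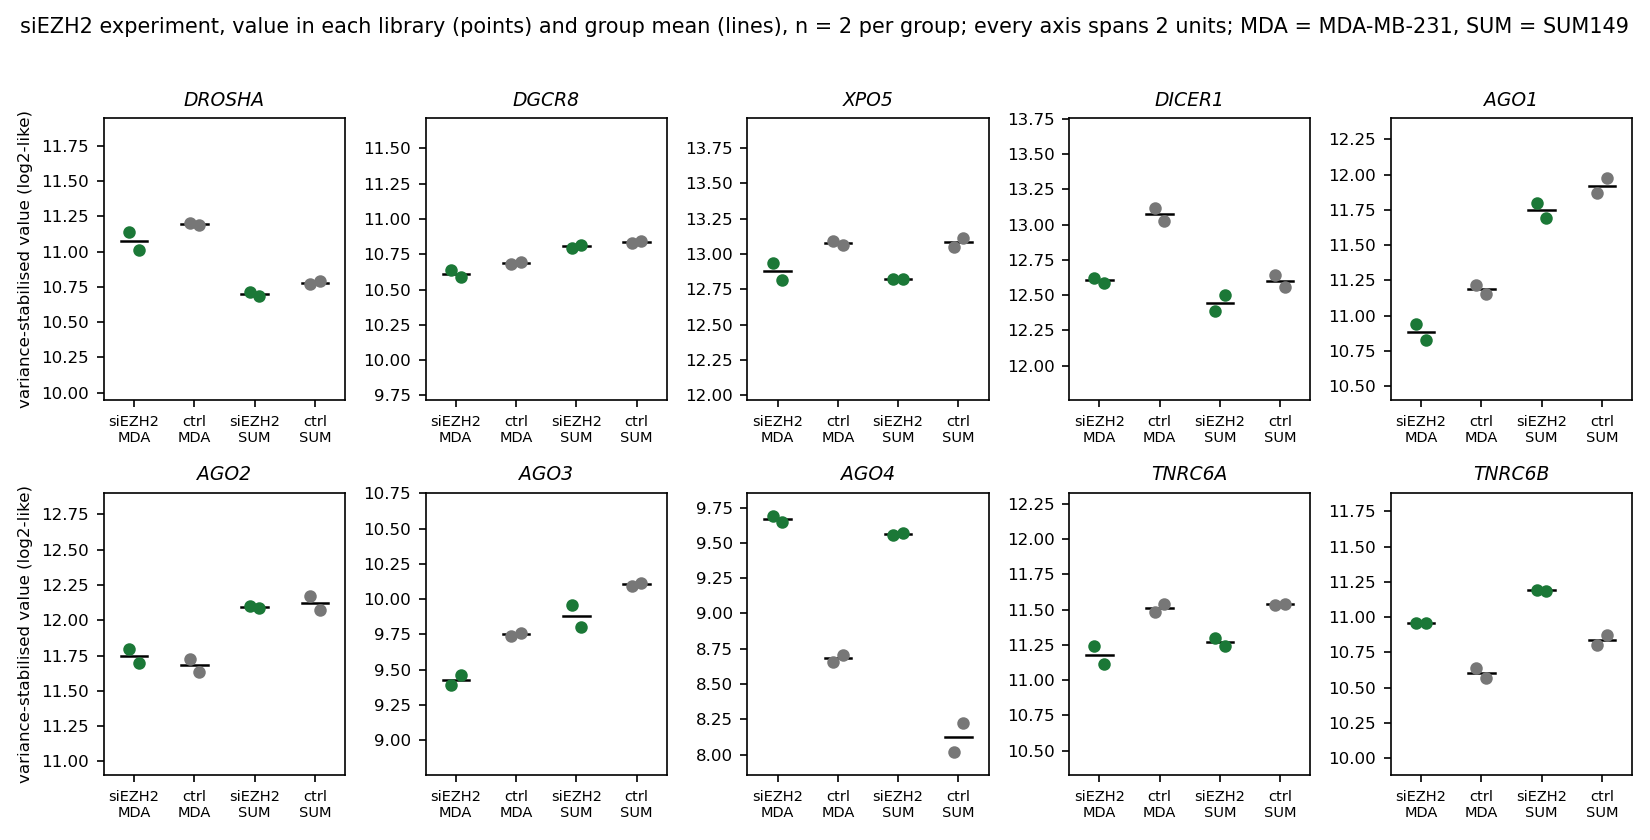
Each panel plots 1 gene in the second experiment on the deposited variance-stabilised scale, with points for the 2 libraries of each group and a line for the group mean; every axis spans 2 units. In AGO4 the siEZH2 libraries of both lines sit between 9.56 and 9.69, above controls at 8.66 and 8.71 in MDA-MB-231 and at 8.02 and 8.22 in SUM149.

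The words ranked first under siEZH2 were the same in both lines, CCAATAA for falls and AATACAA for rises. Genes with CCAATAA were called lower in 41.5% of cases in MDA-MB-231 and 36.0% in SUM149, against 25.2% and 27.7% of genes without it. Genes with AATACAA were called higher in 41.7% of cases in MDA-MB-231 and 39.5% in SUM149, against 26.7% and 27.0%. AATACAA stands once in the 3′ UTRs of AGO2, AGO4 and TNRC6B and 9 times in that of AGO3. CCAATAA stands once in those of DICER1, AGO2, AGO3 and TNRC6B. AGO4, which rose in both lines, holds the first word alone, and DICER1, which fell in both, holds the second alone. AGO2, AGO3 and TNRC6B hold both words, and of these AGO3 fell, TNRC6B rose and AGO2 did not pass in both lines. AGO1, XPO5 and TNRC6A hold neither word and also fell in both lines. Among the genes ranked, 23.5% held AATACAA and 11.9% held CCAATAA. The AGO4 and DICER1 sites are shown as the genes with 1 word only.
AGO4, chr1:35855680-35855706, plus strand: tcacttggatAATACAAatcaggacat
DICER1, chr14:95086234-95086260, minus strand: aagtaaatctCCAATAAagttatcgtc
Of 4273 bases in the DICER1 3′ UTR, the site begins at base 4251, close to the transcript's end. Under siRelB the words ranked first were AAGAAAA for falls and CGACTAA for rises. DICER1 and AGO1, which fell there, hold AAGAAAA, but so do AGO2 and AGO4, which rose. AGO3, XPO5, TNRC6A and TNRC6B, which did not pass there, hold it too, as do 39.1% of the genes ranked. None of the 10 holds CGACTAA. The rise word of siRelA, TGACTAA, ranked 8 for rises under siRelB, where genes with it were called higher in 15.8% of cases, against 8.09% without it. DGCR8 holds none of these words.

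In the lists around the pathway, counts under siEZH2 stand beside 29.4% of all genes called higher and 27.1% called lower in MDA-MB-231, and 29.4% and 28.6% in SUM149. Several lists lie at or near these shares. The list of DICER1 partners and Argonaute loading had 1 of 12 higher and 6 lower in MDA-MB-231 (median -0.16). In SUM149 it had 1 higher and 7 lower (median -0.30), against a median of 0.00 over all genes in each line. TSNAX was the member higher in both, at 0.43 ± 0.06 in MDA-MB-231 cells (limma adjusted p = 4.83e-05) and 0.29 ± 0.06 in SUM149 (limma adjusted p = 0.00114). SND1, a nuclease found with the silencing complex, was lowest in MDA-MB-231 at -0.54 ± 0.05 (limma adjusted p = 2.34e-06). In SUM149 the Hsp90 co-chaperone FKBP4 was lowest at -0.45 ± 0.06 (limma adjusted p = 3.6e-05).

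Argonaute cofactors gave 5 of 13 higher and 1 lower in MDA-MB-231 (median 0.06) and 6 higher and 2 lower in SUM149 (median 0.12). FAM120A, an RNA-binding protein that associates with AGO2, led in both, at 0.93 ± 0.05 in MDA-MB-231 cells (limma adjusted p = 8.31e-09) and 0.73 ± 0.05 in SUM149 (limma adjusted p = 8.89e-08). LIMD1, a LIM protein that bridges Argonaute and TNRC6, changed by 0.85 ± 0.07 in MDA-MB-231 cells (limma adjusted p = 3.22e-07). MOV10, a helicase of the silencing complex, changed by 0.63 ± 0.07 in SUM149 (limma adjusted p = 3.56e-06).

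Downstream effectors gave 3 of 17 higher and 8 lower in MDA-MB-231 (median -0.15) and 4 higher and 8 lower in SUM149 (median -0.10). PABPC4 was lowest in both, at -1.16 ± 0.07 in MDA-MB-231 cells (limma adjusted p = 1.19e-08) and -0.91 ± 0.07 in SUM149 (limma adjusted p = 1.32e-07). XRN1, the exonuclease that degrades decapped mRNA, was higher in both, at 0.41 ± 0.06 in MDA-MB-231 cells (limma adjusted p = 0.000115) and 0.57 ± 0.06 in SUM149 (limma adjusted p = 6.03e-06). DDX6, a helicase that links silencing to decapping, changed by -0.74 ± 0.05 in SUM149 (limma adjusted p = 8.91e-08).

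Other microprocessor factors gave 1 of 8 higher and 4 lower in MDA-MB-231 and 0 higher and 5 lower in SUM149. Genes of tailing and decay gave 1 of 8 higher and 4 lower in MDA-MB-231 and 3 higher and 2 lower in SUM149. Only 8 of 21 host transcripts passed the filter, and of these 1 rose in MDA-MB-231, while 2 rose and 1 fell in SUM149. Described let-7 targets gave 5 of 10 higher and 4 lower in MDA-MB-231 and 3 higher and 3 lower in SUM149. HMGA2, a chromatin protein and a classic let-7 target, rose in both, at 1.23 ± 0.07 in MDA-MB-231 cells (limma adjusted p = 1.67e-08) and 1.63 ± 0.07 in SUM149 (limma adjusted p = 1.94e-09). MYC, also described as a let-7 target, fell in both, at -0.70 ± 0.06 in MDA-MB-231 cells (limma adjusted p = 2.87e-07) and -0.51 ± 0.06 in SUM149 (limma adjusted p = 5.58e-06).

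Whether siEZH2 acted differently in the lines was tested as an interaction, SUM149 minus MDA-MB-231. It passed for AGO4 and DICER1, 2 of 10 genes, beside 21.5% of all genes. AGO4 rose more in SUM149, by 0.45 ± 0.10 (limma adjusted p = 0.00707). DICER1 fell less in SUM149, with a difference of 0.31 ± 0.08 (limma adjusted p = 0.0160). The DICER1 call was lost without replicate 1 of the MDA-MB-231 controls (0.27, limma adjusted p = 0.0873), replicate 2 of the SUM149 controls (0.27, limma adjusted p = 0.0579) or replicate 2 of SUM149 siEZH2 (0.26, limma adjusted p = 0.0803). EZH2 itself was 5.54-fold lower under siEZH2 in SUM149 and 9.08-fold lower in MDA-MB-231, and the part of that gap was not tested. The other 8 genes lay between -0.09 and 0.13 and did not pass.

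Between the lines under control siRNA, SUM149 had 5 of the 10 genes higher and 3 lower, beside 41.3% and 41.5% of all genes (82.8% called in all), so most genes differed and these did so at a like rate. AGO1 was higher in SUM149 by 0.73 ± 0.06 (limma adjusted p = 8.13e-08), AGO2 by 0.44 ± 0.06 (limma adjusted p = 7.38e-06), AGO3 by 0.36 ± 0.07 (limma adjusted p = 0.000227) and TNRC6B by 0.23 ± 0.05 (limma adjusted p = 0.00123). AGO4 was lower in SUM149 by 0.56, or 2.54-fold in recovered counts (limma adjusted p = 7.01e-06). DICER1 was also lower, at -0.47 ± 0.06 (limma adjusted p = 3.82e-06), and so was DROSHA, at -0.42 ± 0.06 (limma adjusted p = 1.08e-05). DGCR8 was called at 0.15 ± 0.05 (limma adjusted p = 0.0182), but leaving out any 1 of the 4 control libraries ended the call, at 0.14 to 0.16. XPO5 and TNRC6A differed by 0.00 ± 0.06 and 0.03 ± 0.06 and overlapped.

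AGO4 was called higher under siRelA, under siRelB and under siEZH2 in each line. Of all genes 8.82%, 7.45%, 29.4% and 29.4% were called higher in these comparisons, of which siRelA and siRelB share controls. Among 11630 genes tested in all 4 knockdowns, 115 (0.989%) were called higher in all 4. DGCR8 was called under none of these siRNAs, by edgeR or limma, and its unadjusted p was above 0.05 in each.

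For AGO2, DICER1 and DROSHA the genes most alike in pattern were found by the mean of 2 Pearson correlations, over the 6 libraries of the first and the 8 libraries of the second experiment, among 11630 genes. DROSHA was most like SRP72 (mean r 0.989), UCA1 (0.984) and SRF (0.983). DICER1 was most like NOTCH2 (0.980), CUL5 (0.968) and TBK1 (0.966), and AGO2 most like TWF1 (0.977), FAM234B (0.975) and SLC25A11 (0.974). The points share libraries and groups, and with so few of them and so many genes high values of this kind describe these libraries only.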

How the data were processed

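The 14 RNA libraries were used, and 30 chromatin libraries were not analysed here. The authors deposited raw counts per Ensembl gene for the first experiment (58207 of 58735 identifiers matched GENCODE v44) and variance-stabilised values on a log2 scale for the second (23961 of 27315 symbols were current and 1054 matched by an older symbol). Tools named in the submitters' processing notes are featureCounts 1.5.0-p3 with HISAT2 2.0.5, DESeq2 1.20.0, Salmon with STAR 2.5.2b, and cutadapt, with build hg19. Their order and roles, the annotation, the strand setting and how values were transformed are not stated. Positions and sequences are GRCh38 and were not converted.

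Counts were fitted with edgeR 4.0.16 (TMM, filterByExpr, glmQLFit and glmQLFTest, term for group, all 6 libraries, 15930 genes, 3 residual degrees of freedom, biological coefficient of variation 10.1%). For the variance-stabilised table limma 3.58.1 was used (eBayes with a variance trend, all 8 libraries, 12356 genes at least 1 above the lowest value of 7.12 in at least 2 libraries, 4 residual degrees of freedom). P-values are two-sided and Benjamini-Hochberg adjusted. Normalised counts were recovered by inverting DESeq2's closed-form transformation with a constant set by the lowest value. These counts are not whole reads. It was assumed that this form had been used and that the lowest value stands for no reads. Fold changes in recovered counts rest on that assumption. The fits were tested on simulated data with R 4.3.3. Words were counted in the 3′ UTR of the Ensembl canonical transcript and scored by the difference in mean log2 change over its standard error.

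The genes, lists and tests were chosen with earlier results of these data known. Besides the 10 genes, RELA, RELB and EZH2, the text names at most 2 called rises and 2 called falls per list and comparison, and 3 genes alike in pattern for AGO2, DICER1 and DROSHA; TNRC6C and TSNAX were followed into other comparisons after their values were seen. Alternatives were DESeq2 1.42.0 and its size factors, no filter, no trend, median centring, fewer groups, recovered counts, a replicate block and leaving out each library.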

Additional observations from a re-analysis of the deposited data

Results flagged for a closer look

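The siEZH2 effect on AGO4 differed between the lines by 0.45 on the variance-stabilised scale (SUM149 minus MDA-MB-231, limma adjusted p = 0.00707), with a rise in both lines, 7.13-fold in recovered counts in SUM149 and 3.12-fold in MDA-MB-231. Both siEZH2 libraries lay above both controls in each line. The siEZH2 effect on DICER1 differed by 0.31 (limma adjusted p = 0.0160), with a smaller fall in SUM149 (-0.16) than in MDA-MB-231 (-0.47). Both are given because the test of the difference itself passed.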

How the results depend on the processing

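Of 700 values of the 10 genes under other settings, 650 kept their direction and their side of the threshold, 23 lost a call, 4 gained one and 23 changed sign. None of those that changed sign had been called. Leaving out 1 library at a time gave -0.051 to 0.17 for DGCR8 under siRelA, -0.060 to 0.16 for DGCR8 and -0.057 to 0.020 for XPO5 under siRelB, and -0.020 to 0.28 for AGO3 and -0.017 to 0.035 for DGCR8 between siRelA and siRelB. It gave -0.077 to 0.021 for AGO2 under siEZH2 in SUM149, -0.022 to 0.11 for DROSHA, -0.12 to 0.0055 for XPO5 and -0.040 to 0.033 for TNRC6B in the difference of the siEZH2 effects, and -0.026 to 0.033 for XPO5 and -0.0030 to 0.053 for TNRC6A between the lines. DGCR8 between siRelA and siRelB was -0.0011 with DESeq2's size factors, -0.0016 with DESeq2's test and -0.0078 with only those groups. TNRC6B in the difference of the siEZH2 effects was 0.020 with median centring and 0.017 with edgeR on recovered counts, where XPO5 between the lines was -0.016. The cause was not tested.

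Leaving out 1 library gave 4 to 6 genes of the 10 called under siRelA, 4 under siRelB, 6 between them, 6 to 8 under siEZH2 in MDA-MB-231, 5 to 6 in SUM149, 1 to 2 in the difference of the siEZH2 effects and 7 between the lines. Over all genes such fits gave 1624 to 2790 calls under siRelA (3031 with all libraries), 1520 to 2262 under siRelB (2913) and 1611 to 2532 in the difference (2662). AGO1 and DICER1 in SUM149 also lost their calls without the filter (limma adjusted p = 0.0537 and 0.0542) and with recovered counts (edgeR adjusted p = 0.0512 and 0.0560). On recovered counts the AGO4 difference between the siEZH2 effects was 1.22 on the log2 scale, against 0.45 on the variance-stabilised scale.

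Same-numbered replicates deviated together only weakly or in opposite directions (r of -0.117 to 0.0879 between the compared knockdown and control groups). No strong shared replicate effect was thus visible. Such correlations cannot show whether same-numbered libraries were prepared together. A replicate block gave 5, 4, 6, 7, 7, 2 and 7 calls among the 10 genes, in the order of the comparisons above. DGCR8 between the lines was lost under it, at 0.13, and XPO5 there was -0.050. Crossing the SUM149 numbers, added after seeing the data, gave 7.

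With 2 libraries per group, small changes near the threshold turn on single libraries, and a change that did not pass is not shown to be absent. For the variance-stabilised values no depth is known.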
